A study of Mus musculus with 3 samples.

Results

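NIH3T3 cells, an immortalized line of mouse embryonic fibroblasts, were cultured for 24 h with 20 µM AR7 or without treatment (None), and the RNA of each culture was read on 1 single-colour Agilent array. AR7 is a small molecule that binds retinoic acid receptor alpha (RARα) and was developed to activate chaperone-mediated autophagy (CMA), the delivery of single proteins into lysosomes through the receptor LAMP2A. The study compared transcripts between such an activator and BMS614, a selective RARα antagonist, and 1 array of cells given 20 µM BMS614 for 24 h is set beside the AR7 values here. All 3 cultures were wild type and grown to confluency in medium with serum. Both compounds were dissolved in DMSO, and the labels do not say whether the None cells received DMSO, so that AR7 and its solvent cannot be told apart.

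Probes entered the comparison when they were not controls, lay well above background without an outlier mark on both the AR7 and the None array, and carried a RefSeq accession with a gene symbol. This left 17799 of 27235 named probes (65.4%), which read 13793 of 20660 genes (66.8%). Each gene is given by its brightest probe, as normalized log2 intensity, and a difference is AR7 minus None on that scale. Genes whose log2 signal averaged 8 or more over the AR7 and None arrays are called bright, and 10008 were. With 1 array per condition no difference has a replicate check, no test between conditions exists, and sizes are described. The only error at hand is technical, the SD of differences between spots of probes printed 10 times on each array. It ranged from 0.356 at the lowest signals to 0.05 at the highest and holds nothing of the variation between cultures.

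The arrays read as fibroblasts. Of 13 fibroblast markers, 12 lay above background on both arrays and 11 were bright, with a log2 summed signal of 19.92 for AR7 and 19.96 for None. Col1a2, a fibrillar collagen chain, stood at 17.58 and 17.57, and Vim, the intermediate filament of mesenchymal cells, at 17.02 and 16.96. Postn was not above background, and Col3a1 was dim (5.21 and 5.55). No epithelial, muscle, neural or adipocyte marker was bright, and of the other lists Kdr, Cd14 and Cd3e were. The summed leukocyte markers stood at 11.01 and 10.96 and the summed endothelial markers at 13.25 and 13.26.

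The results turn on the NRF2 and AhR systems and on CMA. NRF2 is held in the cytosol by KEAP1 and degraded. Electrophiles and oxidants modify KEAP1, NRF2 enters the nucleus, pairs with small MAF proteins and binds antioxidant response elements at genes for quinone reduction, glutathione and thioredoxin metabolism, NADPH supply and drug conjugation. The aryl hydrocarbon receptor (AhR) is a ligand-activated factor that pairs with ARNT and drives Cyp1a1, Cyp1b1, Nqo1 and Aldh3a1, so that both systems share targets. RARα represses CMA, and the protein encoded by Ncor1 is a corepressor of it.

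The difference between the arrays was small for most genes. Over the 10008 bright genes the median difference was −0.0025, the SD 0.114, and 98% of genes fell between −0.277 and 0.33. No bright gene reached 2-fold (0.0% of bright genes). Among all 13793 genes 18 were higher by 2-fold (0.131%) and 33 lower (0.239%), all at mean log2 signals below 8. At 1.5-fold 12 genes were called (0.12%), 8 higher (0.0799%) and 4 lower (0.04%). At 1.2-fold, a log2 difference of 0.263, 324 genes were called (3.24%), 204 higher (2.04%) and 120 lower (1.2%). The share past 1.2-fold followed the signal. It was 52.43% of the 1381 genes below a log2 signal of 6, 6.23% of the 2840 genes between 8 and 10, and 1.29% of the 1241 genes at 14 or above. The plot of differences against signal shows this widening toward dim genes, and the bright genes are the ones followed below.

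**Figure D1:**
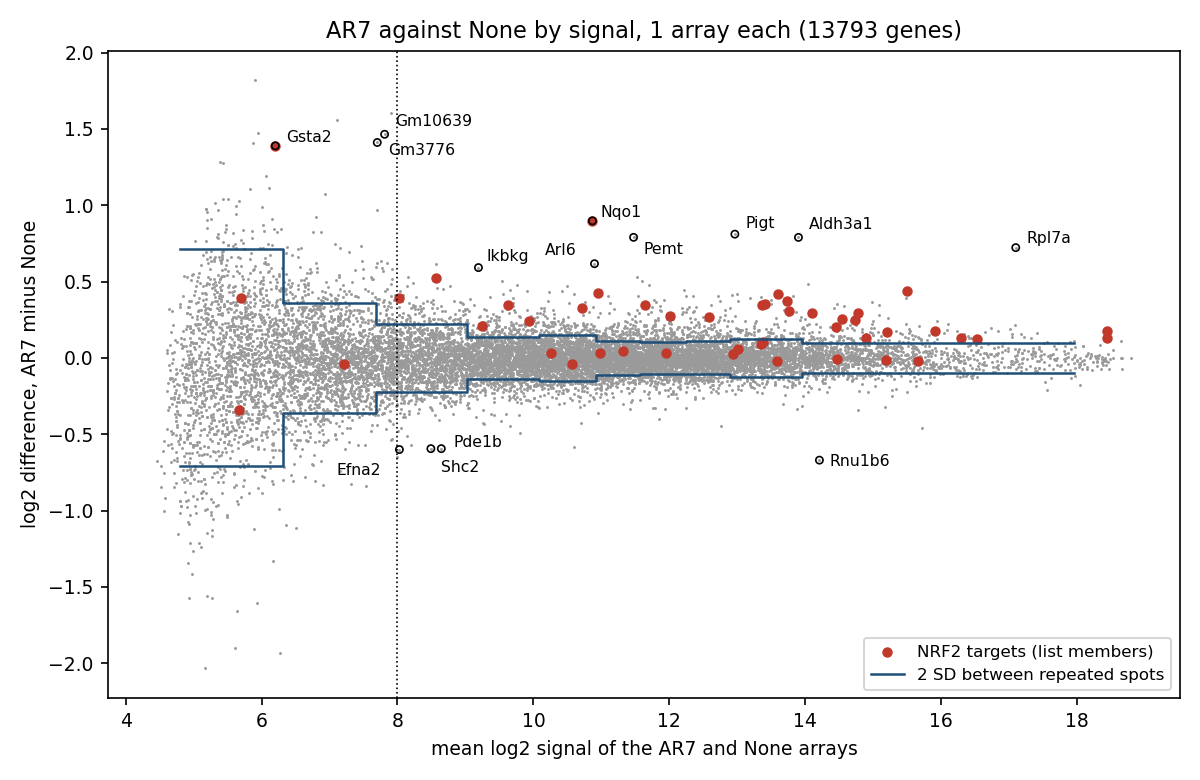
Each grey point is 1 of 13793 genes, with the mean log2 signal of the AR7 and None arrays on the x axis and the log2 difference AR7 minus None on the y axis. Red points are NRF2 targets, blue steps mark 2 SD between repeated spots, and the dotted line is the limit for a bright gene at 8. The scatter narrows with signal, and Nqo1 (0.90), Pigt (0.81) and Aldh3a1 (0.79) lie far above the blue steps at signals over 10.

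Nqo1, the NAD(P)H quinone dehydrogenase that reduces quinones to hydroquinones, had the largest difference among bright genes. Its log2 signal was 11.32 with AR7, 10.42 without treatment and 10.62 with BMS614, a difference of 0.90 (1.86-fold) against a spot SD of 0.074. Aldh3a1, an aldehyde dehydrogenase that clears lipid peroxidation aldehydes, stood at 14.29 with AR7, 13.51 without treatment and 13.50 with BMS614 (0.79, or 1.73-fold). Its other probe read 13.64, 12.36 and 12.31, a difference of 1.28. In raw form these probes had median spot intensities of 19648 and 12647 on the AR7 array against 10305 and 4690 on the None array. For both genes the AR7 array stood above the other arrays, and for Aldh3a1 the BMS614 and None arrays lay within the spot SD of 0.061.

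Of the other 6 genes higher by 1.5-fold, Ikbkg, which encodes the regulatory subunit of the IκB kinase complex, had a second probe that moved with the first. It read 9.49 with AR7, 8.90 without treatment and 8.85 with BMS614 (0.59), and its other probe differed by 0.53. Pigt, a subunit of the transamidase that attaches glycosylphosphatidylinositol anchors, has 1 probe and read 13.37, 12.56 and 12.01 in the same order (0.81). Here the BMS614 array lay below None by 0.55, so that the treated arrays fell on opposite sides. Gm11938, a predicted coding gene with 1 probe, read 8.87, 8.25 and 8.81 (0.61).

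The remaining 3 rest on 1 probe that the gene's other probes did not follow. For Pemt, which methylates phosphatidylethanolamine to phosphatidylcholine, the brightest probe read 11.87, 11.08 and 11.92 (0.79), while the other probes differed by −0.21 and −0.18. For Rpl7a, a protein of the large ribosomal subunit, it read 17.46, 16.74 and 17.34 (0.72), while the other 3 probes lay between −0.16 and 0.04. For Arl6, a small GTPase of cilia, it read 11.21, 10.59 and 10.77 (0.62), and the other probe differed by −0.11. With Pemt and Rpl7a the BMS614 array was as high as or near the AR7 array and the None array was the low one.

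Among the 4 genes lower by 1.5-fold, Shc2, an adaptor of receptor tyrosine kinases, was the one read by more than 1 probe. It stood at 8.19 with AR7, 8.79 without treatment and 8.60 with BMS614 (−0.59), and its other probe differed by −0.34. Pde1b, a calmodulin-dependent cyclic nucleotide phosphodiesterase, read 8.35, 8.94 and 8.71 (−0.59). Efna2, an ephrin ligand, read 7.73, 8.33 and 7.33 (−0.60), and Rnu1b6, a copy of the U1 spliceosomal RNA, read 13.87, 14.54 and 13.54 (−0.67). Efna2 and Rnu1b6 were lower still with BMS614, by −1.0 and −1.01, so that None was the high array for both.

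**Figure D2:**
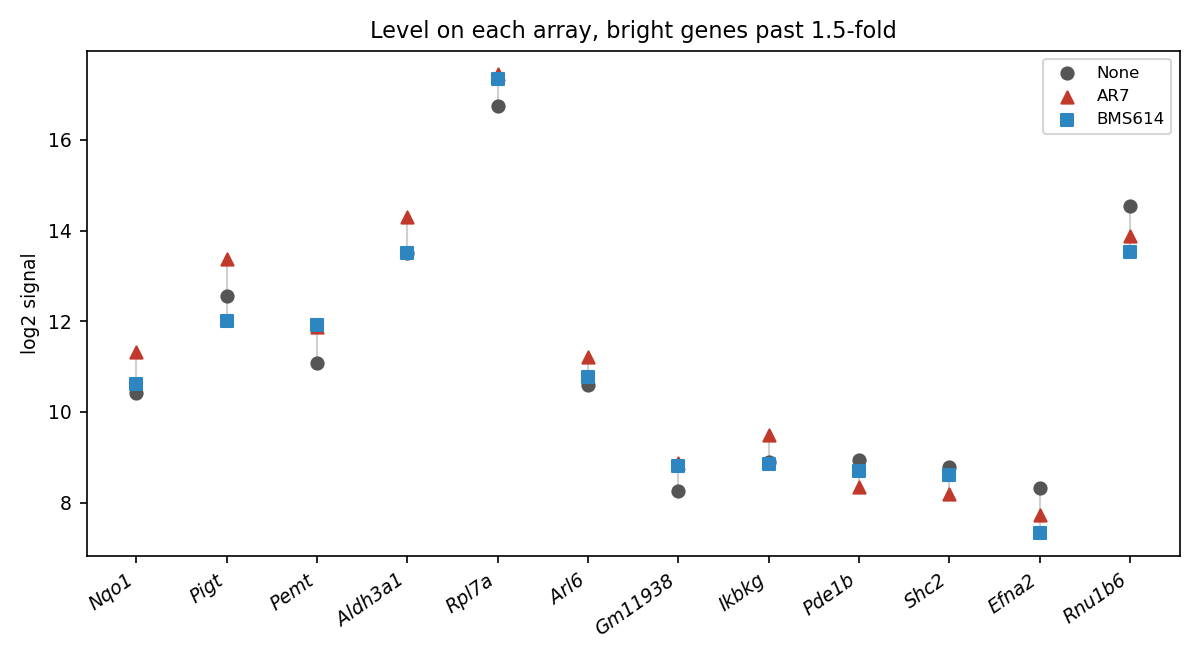
Log2 signal of the brightest probe of the 12 bright genes past 1.5-fold on each array (circle None, triangle AR7, square BMS614), 1 array per condition. For Nqo1, Aldh3a1 and Ikbkg the AR7 array stands apart from the other arrays, whereas for Pemt, Rpl7a and Gm11938 the None array does.

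Agreement between probes was examined next. Different probes of a gene are separate sequences on the same array, so that they bear on the probe and spot and not on the culture. Of 3376 genes with 2 or more probes, 47 had every probe past 1.2-fold the same way (1.39%), 25 higher (0.741%) and 22 lower (0.652%). The split was 41 to 5 with the scanner software's processed signal and 38 to 1 with the deposited table. With normexp background correction the 47 fell to 9, all higher. The cause was not tested. Of the 47, 18 were bright, and they split into 17 higher and 1 lower, Shc2. The brightest probe alone called 58 of the 3023 bright genes with several probes higher and 25 lower.

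Apart from Aldh3a1 and Ikbkg, the genes on which probes met included NRF2 targets and structural or signalling genes. Esd, an esterase that hydrolyses S-formylglutathione, stood at 15.72 with AR7, 15.28 without treatment and 15.38 with BMS614, and its probes differed by 0.44 and 0.47. Slc8b1, the sodium/calcium exchanger of mitochondria, read 9.02, 8.65 and 8.65, with probe differences of 0.37 and 0.42. For both genes the BMS614 array lay nearer to None than to AR7. Hspg2, the basement membrane proteoglycan perlecan, differed from this. It read 11.84, 11.34 and 12.05 (0.50 and 0.57), and Syne2, the nuclear envelope protein nesprin-2, read 11.97, 11.59 and 11.98 (0.38 by either probe). By these brightest probes both stood as high or higher with BMS614. The other Syne2 probe was also higher with BMS614 (0.28), but the other Hspg2 probe, which is dim, was not (−0.20). Fgfr3 (0.31 and 0.59), a fibroblast growth factor receptor, Notch2 (0.30 and 0.84), a receptor of Delta and Jagged ligands, and the ubiquitin ligase gene Cblb (0.29 and 0.61) were also higher by both probes, with a wider gap between them.

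**Figure D3:**
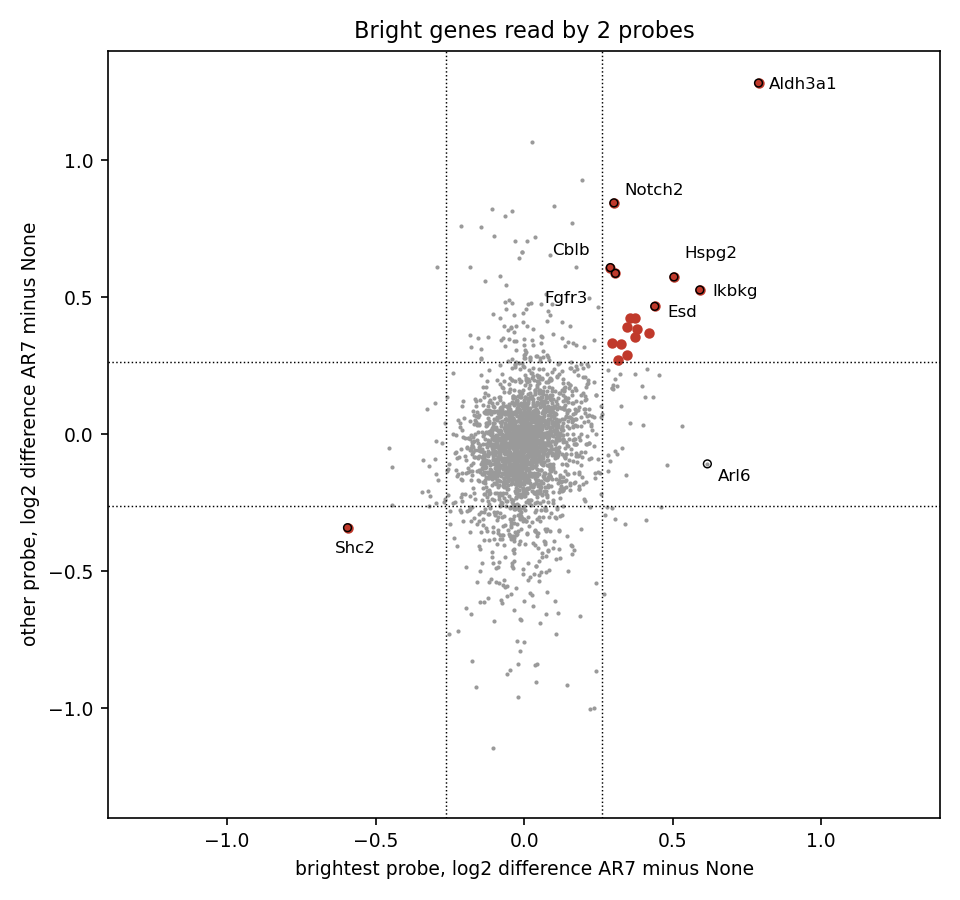
Log2 difference AR7 minus None by the brightest probe (x axis) and the other probe (y axis) for 2517 bright genes read by 2 probes, of which 2 lie outside the axes. Dotted lines mark 1.2-fold and red points the 18 genes past it by both probes the same way. Aldh3a1 lies alone at the upper right and Shc2 at the lower left, while Arl6 is past the line by its brightest probe only.

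Of the 27 lists examined, the NRF2 list held the most higher genes. Of 50 listed targets 49 were on the array, 46 were measured and 42 were bright. Of these, 17 were higher at 1.2-fold (40.5%) and 0 lower, beside 2.04% and 1.2% of all bright genes. The list median was 0.21 against −0.0025 for all bright genes, and it was 0.048 with BMS614. A difference above 0 was read for 37 of the 42 genes, and 29 were above 2 spot SDs while none lay below −2. Of 14 targets with several probes, dim ones included, 13 had every probe above 0 and 6 were past 1.2-fold by every probe. The number of higher genes lay between 13 and 17 over the 9 other settings of scaling, signal limit and probe averaging. The list was written with earlier results on these arrays known, and 1 pair of cultures stands behind all its genes.

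Among enzymes that act on quinones, carbonyls and aldehydes, Nqo1 led. Aox1, an aldehyde oxidase, read 8.83 with AR7, 8.31 without treatment and 8.13 with BMS614 (0.52). The carbonyl reductase genes differed in how BMS614 stood. Cbr3 read 9.80, 9.45 and 9.48 (0.35), whereas Cbr1 read 10.87, 10.55 and 10.95 (0.33), with the BMS614 array higher than the AR7 array. The aldo-keto reductases lay near 0, with Akr1b8 at −0.012 over 10 repeated spots (SD 0.038) and Akr1c13 at 0.031.

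The glutathione transferases, which conjugate glutathione to electrophiles, included differences past 2-fold at low signal. Gsta2, of the alpha class, read 6.90 with AR7, 5.51 without treatment and 5.31 with BMS614, a difference of 1.39 (2.62-fold) against a spot SD of 0.356. In the RefSeq annotation Gm3776 and Gm10639, predicted genes of the same class, lie between Gsta1 and Gsta2 on chromosome 9. They were looked up after their values were seen and are not on the list. Gm10639 read 8.54, 7.08 and 7.03 (1.47) and Gm3776 read 8.41, 6.997 and 7.09 (1.41), against a spot SD of 0.111 at a mean signal just under the limit of 8. On all 3 genes the AR7 array stood apart while BMS614 and None lay within 0.201 of each other. The genes of this cluster are near copies, so that 1 transcript may reach several of these probes. Under the 6 other scalings the difference was between 1.032 and 1.501 for Gm10639, between 0.988 and 1.44 for Gm3776, and between 0.629 and 1.45 for Gsta2. Gsta3 was dim (0.39 and 0.52 by 2 probes). The probe of Gsta4 read 11.35, 10.72 and 10.82 (0.62) but carried an outlier mark and is no member, and Gsta1 was not among the named probes.

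The mu, pi and microsomal classes were read at higher signal. Gstm1 stood at 13.92 with AR7, 13.55 without treatment and 13.59 with BMS614 (0.37 and 0.35 by 2 probes), and Gstp1 at 14.92, 14.62 and 14.63 (0.29 and 0.33). Mgst1, a membrane-bound transferase, read 11.81, 11.46 and 11.52 (0.35 and 0.39). In all 3 both probes were past 1.2-fold. By the brightest probe the BMS614 array was within 0.061 of None, and by the other probe of Gstm1 and Gstp1 it lay below None, by −0.14 and −0.15. Mgst2 (0.25) and Gstm2 (0.20) lay below the limit, and Gstm3 (0.033) and Gstm5 (0.025) near 0. Members of the mu class share much sequence, so that their probes may not be fully separate.

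Glutathione synthesis and the thioredoxin system followed with smaller differences. Gclc, the catalytic subunit of the enzyme that commits cysteine and glutamate to glutathione, read 12.71, 12.44 and 12.52 (0.27), and its modifier Gclm read 10.06, 9.82 and 9.80 (0.24). Gsr, which returns oxidized glutathione to the reduced form, differed by 0.090. Srxn1, sulfiredoxin, read 13.55, 13.20 and 13.27 (0.35) and Txnrd1, thioredoxin reductase, 14.25, 13.95 and 14.02 (0.29). Both were past 1.2-fold, while their partners Prdx6 (0.18), Prdx1 (0.17) and Txn1 (0.13) were not. Slc7a11, the cystine importer that feeds this pathway, was not well above background on the AR7 or the None array.

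Of haem and iron handling, both enzymes were higher, and the ferritin probes were divided. Hmox1, which opens haem to biliverdin, read 13.58 with AR7, 13.23 without treatment and 13.27 with BMS614, with probe differences of 0.36 and 0.42. Blvrb, biliverdin reductase B, read 13.92, 13.61 and 13.75 (0.31). The ferritin genes Fth1 (0.18) and Ftl1 (0.13) lay between 0 and the limit by their brightest probes, read at signals above 18. The other Ftl1 probe read 16.50, 16.15 and 16.11, a difference of 0.35 that is past the limit.

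In the NADPH-forming routes 1 gene was higher. Pgd, 6-phosphogluconate dehydrogenase of the pentose phosphate pathway, read 13.82, 13.39 and 13.45 (0.42). Its neighbours in that pathway did not reach 1.2-fold, with Taldo1 at 0.12, G6pdx at 0.057 and Tkt at −0.0063. Me1 (0.10) and Idh1 (−0.039), which form NADPH elsewhere, were also below it. Of the remaining targets, the stress-induced growth inhibitor Osgin1 (0.39), pirin, encoded by Pir (0.28), and the efflux pump gene Abcc1 (0.42) were higher, the last also with BMS614 (0.30). Abcc4, another pump of that family, differed by 0.21 with AR7 and by 0.46 with BMS614. The 5 bright targets below 0 were Tkt, Akr1b8, Gpx4 (−0.018), Ugdh (−0.019) and Idh1, each within 1 spot SD of 0. Among genes that control the pathway, looked up after the results, Nfe2l2, which encodes NRF2 itself, differed by 0.018 and Keap1 by 0.11.

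**Figure D4:**
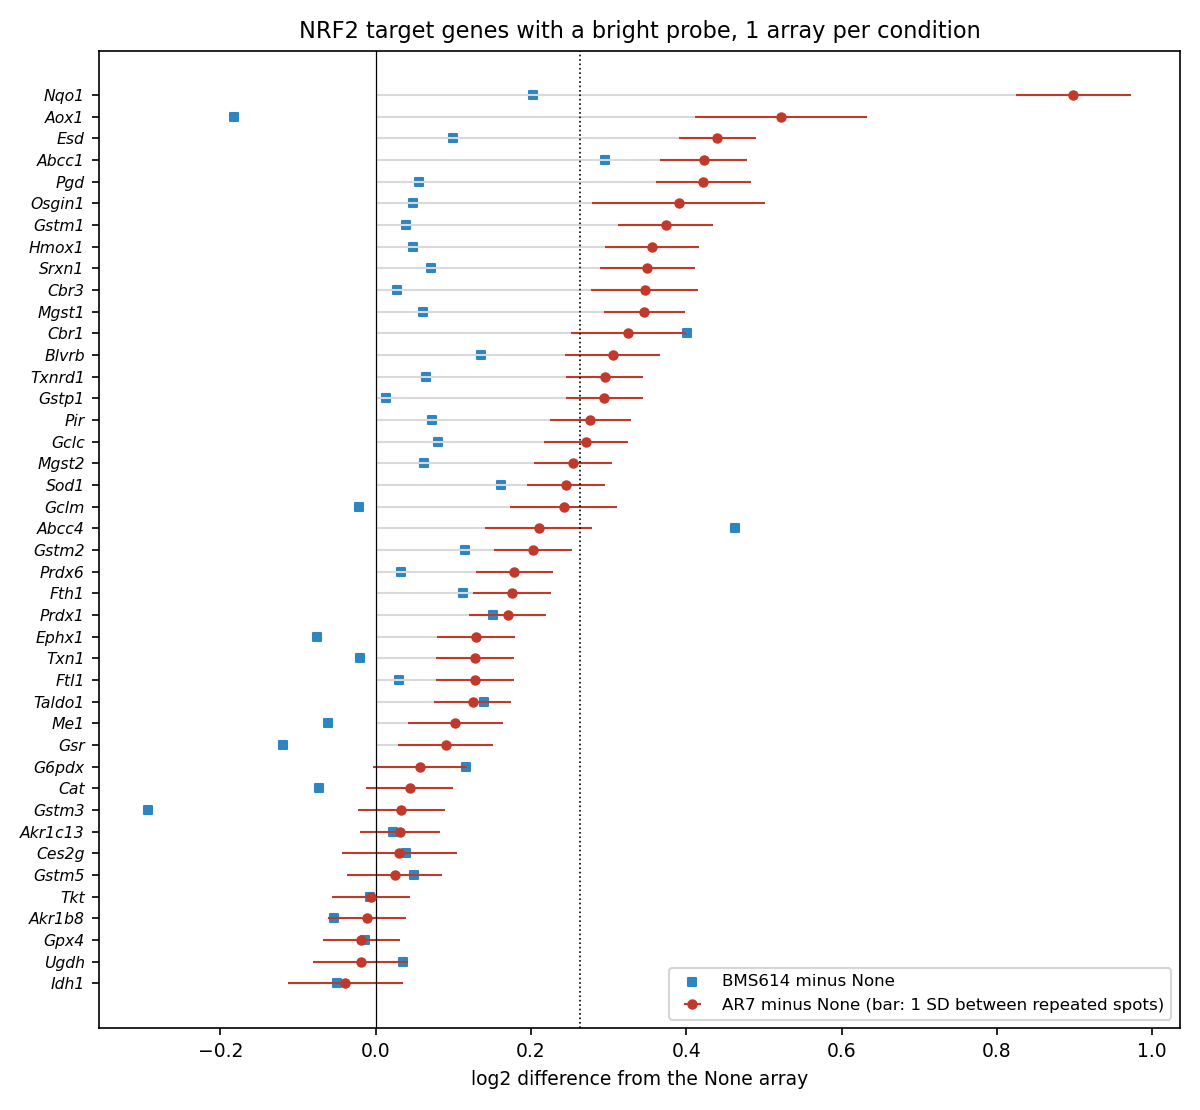
Log2 difference from the None array for the 42 bright NRF2 targets, with AR7 in red (bar 1 SD between repeated spots at that signal) and BMS614 in blue, 1 array per condition and a shared None array. The dotted line marks 1.2-fold. The AR7 points run from 0.90 (Nqo1) to −0.039 (Idh1) with 17 past the line, and the BMS614 points of Abcc1, Cbr1 and Abcc4 also lie past it.

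To show what stands in front of such genes, promoters from RefSeq on GRCm38.p6 were read over the 250 bases before each start. The core of the antioxidant response element was searched as TGACNNNGC on both strands. It overlaps the AP-1 motif TGACTCA where its first bases are TGACTCA or, read backwards, TGAGTCA. It was in 11.5% of 27025 genes with a promoter, 13.8% of 8062 bright genes and 12.7% of the 158 bright genes higher at 1.2-fold. Of the 37 bright NRF2 targets with a promoter, 3 of 14 higher ones held it (21.4%) and 7 of 23 that were not higher (30.4%). The other bright targets, some of them higher, had no promoter to read. The 3 higher targets that held it are printed 5′ to 3′ on the plus strand, with the match, which in each reads on the opposite strand, in capitals.
Mgst1 (chr6:138140277-138140526): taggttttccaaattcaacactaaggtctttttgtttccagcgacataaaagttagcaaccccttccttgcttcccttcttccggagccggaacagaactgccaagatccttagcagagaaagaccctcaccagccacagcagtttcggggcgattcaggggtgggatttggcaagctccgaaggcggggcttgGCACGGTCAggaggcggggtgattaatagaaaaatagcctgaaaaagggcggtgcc
Txnrd1 (chr10:82858956-82859205): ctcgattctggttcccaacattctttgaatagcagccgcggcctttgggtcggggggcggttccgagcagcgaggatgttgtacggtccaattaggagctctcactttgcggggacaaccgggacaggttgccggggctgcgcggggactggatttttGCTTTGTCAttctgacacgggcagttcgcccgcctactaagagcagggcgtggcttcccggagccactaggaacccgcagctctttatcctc
Pir (chrX:164269181-164269430): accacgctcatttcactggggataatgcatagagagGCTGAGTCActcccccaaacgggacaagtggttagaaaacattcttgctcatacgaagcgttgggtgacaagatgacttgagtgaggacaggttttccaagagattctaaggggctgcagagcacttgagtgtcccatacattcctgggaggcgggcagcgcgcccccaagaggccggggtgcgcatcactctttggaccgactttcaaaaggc
The match begins 56 bases before the start in Mgst1, 92 in Txnrd1 and 214 in Pir, where the capitals also hold the AP-1 letters. A match is a description of the letters and no binding site, and elements farther from the start lie outside this window.

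Of the AhR list, 6 genes were bright and 3 were higher at 1.2-fold, beside 2.04% of all bright genes. Apart from Nqo1 and Aldh3a1, which the NRF2 system also drives, this was Cyp1b1, a cytochrome P450 that hydroxylates oestrogens and polycyclic hydrocarbons. It read 12.96 with AR7, 12.68 without treatment and 12.89 with BMS614 (0.28). It fell below the limit with the processed signal (0.20) and with the deposited table (0.24). Tiparp, a feedback repressor of AhR, differed by 0.095, Ahr by 0.10 and Arnt by 0.091. Cyp1a1 and Cyp1a2, the genes that define the AhR response, were not above background on the AR7 and None arrays, and Ahrr was dim (−0.37) with a sign that turned under 2 other scalings. The core of the AhR element, GCGTG on either strand, was in 50.3% of bright genes with a promoter and 47.5% of those higher at 1.2-fold. Of NRF2 targets with a promoter, 10 of 14 higher ones held it (71.4%) and 14 of 23 that were not higher (60.9%).

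The mitosis list lay to the other side of 0, mostly below the size that was called. Of 32 bright genes 28 were below 0, and the median was −0.13 (0.013 with BMS614), while 50.7% of all bright genes were below 0. Only Kif11, the kinesin that pushes spindle poles apart, was lower at 1.2-fold, with 9.75 for AR7, 10.03 for None and 10.10 for BMS614 (−0.28), and its size was under 1.2-fold in some other scalings (−0.20 at the smallest). Cdc25c (−0.25), the phosphatase that starts mitosis, Kif20a and the centromere histone gene Cenpa (−0.20 for both) followed, whereas Cdk1 (0.0014) and the proliferation marker Mki67 (0.0020) lay near 0. The median lay between −0.11 and −0.14 under the other settings. The DNA replication list had 23 of 35 genes below 0 and a median of −0.037, with none past 1.2-fold. Over all bright genes 1.2% were lower at that limit and 3.24% past it either way.

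Chaperones of the endoplasmic reticulum also lay below 0, by small amounts. Of 24 bright genes of the unfolded protein response 19 were below 0, beside 50.7% of all bright genes, and the median was −0.074. Beside 1.2% of all bright genes, 1 was called lower at 1.2-fold (4.2%). This was Sdf2l1, a factor of chaperone cycling, at 10.59 with AR7, 10.90 without treatment and 10.701 with BMS614 (−0.31). Hspa5, the main chaperone of this compartment, differed by −0.14. Creld2 was read by 10 spots, with a mean of −0.19 (SD 0.036 over spots). The lists for the ATF4 stress response (31 genes) and heat shock chaperones (22 genes) held none past 1.2-fold, beside 3.24% of all bright genes.

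**Figure D5:**
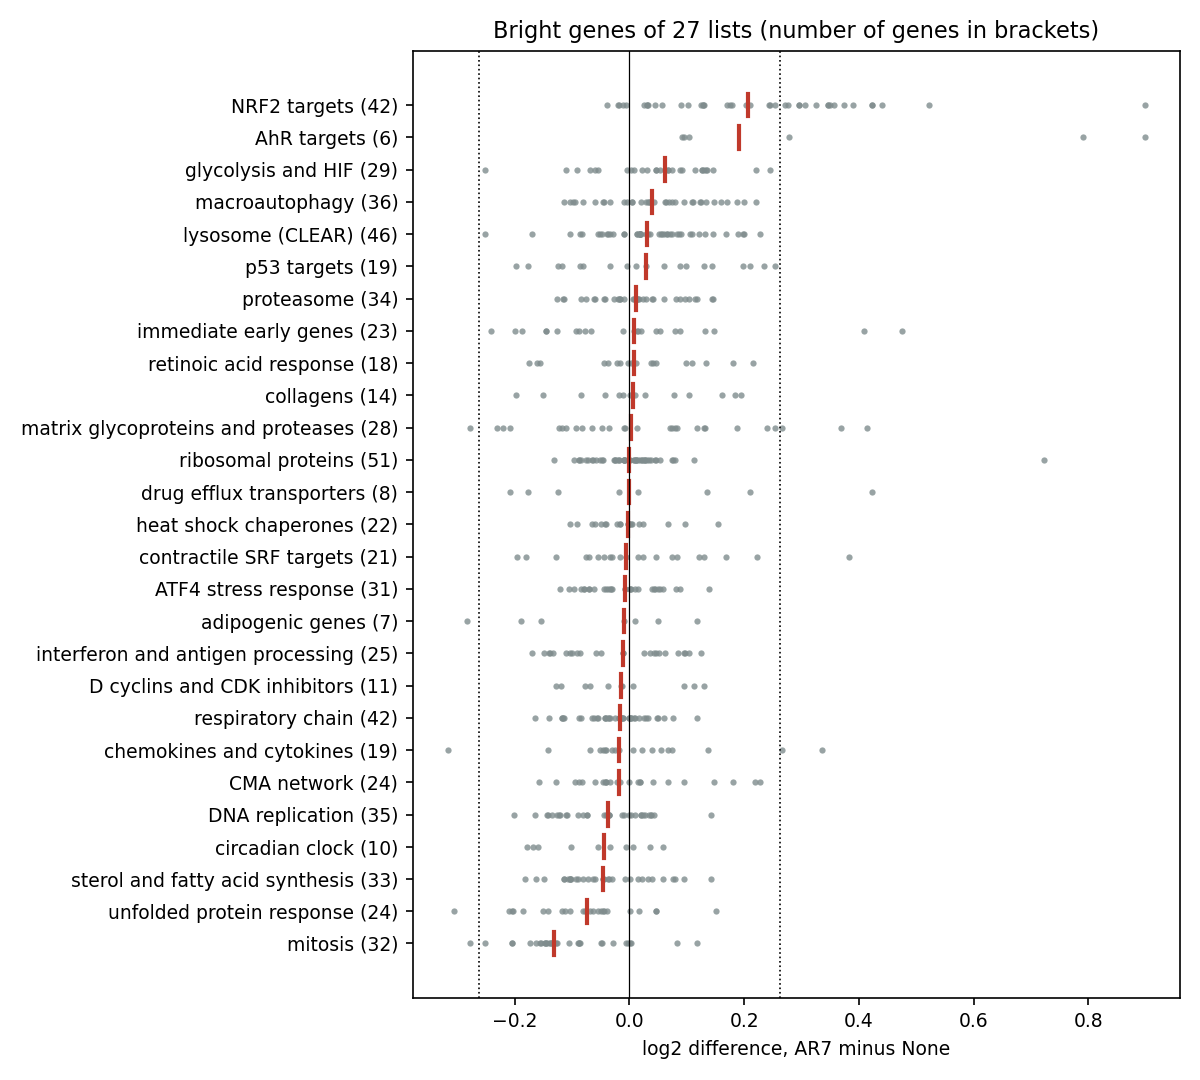
Log2 difference AR7 minus None of the bright genes of each list (points), with the list median as a red bar and the number of genes in brackets; dotted lines mark 1.2-fold either way. The NRF2 (median 0.21) and AhR (0.19) lists lie highest and the mitosis list (−0.13) lowest, and most other medians lie within 0.05 of 0.

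The autophagy and retinoid genes that the compound was developed around differed little between this pair of arrays. At the same dose and time the study reports changed expression of part of the CMA network, from repeated experiments and qPCR. The single arrays read here hold no such repeats. No gene of the CMA network (24 bright), macroautophagy (36), lysosome (46) or retinoic acid response (18) lists was past 1.2-fold, beside 3.24% of all bright genes. At that share few calls would fall in lists of this size. The list medians were −0.019, 0.039, 0.031 and 0.0072, against −0.0025 for all bright genes. The signs of the lysosome and retinoic acid medians turned with the setting, down to −0.0038 and −0.019. Lamp2, whose transcripts include the CMA receptor, read 13.37 with AR7, 13.14 without treatment and 13.30 with BMS614 by its brightest probe (0.23), and 0.04 by the other. The probes were not matched to its splice forms. Rara differed by −0.016, Hspa8, the chaperone that brings CMA substrates to the lysosome, by −0.041, and Ncor1 by 0.18, with its other probes down to −0.02.

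Single genes were called in other lists whose medians lay within 0.02 of 0 and, for all but the chemokines, turned sign with the setting. Of the immediate early genes, Ier3, a survival factor, read 11.94, 11.47 and 11.37 in the order AR7, None, BMS614 (0.48), and Phlda1 read 12.46, 12.05 and 12.02 (0.41). In both, BMS614 lay with None, and the other 21 bright genes of that list were not past 1.2-fold. Ptgs2, the inducible cyclooxygenase, had 10 spots with a mean difference of 0.34 (SD 0.049). Its levels were 11.05, 10.71 and 10.94. Tagln, a smooth muscle actin-binding protein, read 12.11, 11.73 and 11.79 (0.38), while Acta2 of the same list differed by −0.18. Of the matrix genes Nid1 (0.41), Fbn1 (0.37) and Plod2 (0.27) were higher and the proteoglycan gene Lum (−0.28) lower, and Fbn1 was higher still with BMS614 (0.54). The chemokines Cxcl5 (0.27) and Ccl9 (−0.32) went opposite ways, and the lipid carrier gene Fabp4 of the adipogenic list was lower (−0.28). Cxcl5, Ccl9, Plod2 and Fabp4 lay inside 1.2-fold under at least 1 other scaling.

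Higher calls were most frequent among the longest genes. Bright genes were put into 5 equal bins by genomic span. In the bin of the longest genes (median 102 kb) 3.95% were higher at 1.2-fold, and in the other bins between 1.3% and 1.9%. Lower calls were 1.95% in the shortest bin and between 0.699% and 1.15% in the others. The median difference of the longest bin was 0.026 for AR7 and 0.040 for BMS614, against −0.015 and −0.012 in the shortest. Syne2, Notch2 and Fbn1 are in the longest bin, with spans of 293, 137 and 206 kb, and Hspg2, at 102 kb, also is, and the part of length in their values was not tested. The higher NRF2 targets were spread over all bins, with 5, 2, 5, 1 and 4 from the shortest to the longest.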

How the data were processed

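Total RNA of 3 NIH3T3 cultures (AR7, BMS614 and None) was labelled with Cy3 and hybridized to single-colour Agilent arrays on 1 slide, with 1 array per condition as the labels group them. The authors deposited the scanner software's median spot intensity, background intensity and processed intensity for each array, and a value table that follows the background-subtracted intensity on a linear scale, although the submitters' processing notes name RMA and oligo. The table has a floor of 16 set here before log2 and served as an alternative.

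From the median spot intensity without control spots, the RMA convolution background was fitted per array, followed by log2 and quantile normalization over the 3 arrays. Spots with outlier marks were left out only afterwards, in the mean over spots of a probe (R 4.3.3, limma 3.58.1, Python 3.11.15, numpy 2.4.6, pandas 2.3.3, matplotlib 3.10.9). Quantile normalization sets equal distributions, so that a shift of all genes together cannot be seen. The 75th percentile of median intensity was 780.5 for AR7, 909 for BMS614 and 692 for None. Accessions were named through a RefSeq table of GRCm38.p6. The number of arrays limits the precision, and no test between conditions was made. The call rule was tested on simulated data, which cannot show the variation between cultures.

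Genes named are bright genes past 1.5-fold, at most 15 a direction on which all probes agree, at most 6 per list, repeated-spot genes past 1.2-fold and all measured NRF2 and AhR targets. Of genes named beside the rule (Gm3776, Gm10639, Gsta4, Notch2, Fgfr3, Cblb, Keap1 and single members of lists), all were chosen after their values were seen. The comparison, its members and all 27 gene lists were chosen with earlier results of these data known. Not every gene under this rule is reported by name, but each is counted in its list. Alternatives were other scalings, signal limits of 7 and 10, and averaging a gene's probes.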

Additional observations from a re-analysis of the deposited data

How the results depend on the processing

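Of the 71 named genes past 1.2-fold, 68 kept their direction under each of 6 other scalings and the mean over probes, and 37 stayed past 1.2-fold in all of them, Nqo1, Aldh3a1, Ikbkg, Hmox1, Gstm1, Mgst1 and Srxn1 among them. The 3 that turned were dim: Ahrr (0.085 with percentile-scaled processed signal, 0.0836 with the deposited table), Gpx2 (0.0182 and 0.0406) and Npas3 (0.041 with the processed signal). For Pemt and Rpl7a the mean over probes gave 0.13 and 0.16. The 12 genes past 1.5-fold became 7 with normexp (6 higher), 32 with a signal limit of 7 (23 higher), 7 with a limit of 10 and 0 at 2-fold. Their share of higher genes, 66.7%, was 85.7% with normexp, 88.9% with spike-in scaling, 80.0% with the deposited table and 50% with the mean over probes. The 324 past 1.2-fold (63.0% higher) became 562 with a limit of 7 and 147 with a limit of 10, and 74.2% were higher with the deposited table. The 47 genes with agreeing probes (25 higher, 22 lower) became 9 with normexp, all higher, and 3 at 1.5-fold for every probe, and split 41 to 5 with the processed signal and 38 to 1 with the deposited table. The cause was not tested. The medians of the lysosome, retinoic acid response, p53, collagen, contractile, matrix, drug efflux and circadian lists turned sign with smaller moves. List medians that moved beyond the spot SD were AhR (0.1042 with a limit of 7), and with the processed signal immediate early genes (−0.0489), heat shock chaperones (−0.0651), respiratory chain (−0.0801), ribosomal proteins (−0.0999), proteasome (−0.0491) and adipogenic genes (−0.0723). Ribosomal proteins also stood at −0.0735 with RMA and 75th percentile scaling, −0.0729 with the deposited table and −0.0666 with spike-in scaling. Spike-in scaling moved the median of bright genes by 0.115, and values under it are relative to that shift. Values from the mean pixel intensity of a spot were not computed. No paired analysis was possible because no condition has more than 1 array, and the slide holds all arrays, so that it cannot be a block. Dim genes, 3785 of 13793, had spot SDs of up to 0.356, which limits what their differences show.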

Other observations

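Probes with no gene symbol in the table used here were counted one by one rather than by gene. Of 5328 bright unnamed probes, 21 were higher and 6 lower by 1.5-fold, and 209 were higher and 147 lower by 1.2-fold. These are 0.507% and 6.68% of them, beside 0.12% and 3.24% of bright named genes, which stand for the brightest probe of each gene.

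Among bright genes lower at 1.2-fold, 8.33% were not protein coding, compared with 1.8% of all bright genes and 1.96% of those higher. Of the 120 lower genes this was 4 long non-coding RNAs and 6 others, Rnu1b6 among them. The median signal of the lower genes was 9.21 and that of the higher genes 10.15, beside 11.28 for all bright genes. The median difference with BMS614 was 0.17 for the 204 genes higher with AR7 and −0.15 for the 120 lower ones, and both comparisons share the None array.

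Ak4, an adenylate kinase of mitochondria and a target of hypoxia-inducible factor, was read in opposite ways by its probes. Its brightest probe differed by −0.11, and another, with a mean log2 signal of 7.80, by 4.27.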
